A study of Homo sapiens with 4 samples.

Results

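UGT8 encodes the ceramide galactosyltransferase, and it is described here with 9 other genes that attach sugars to ceramide, modify or remove those sugars, or set the ceramide pool. The 10 genes are UGT8, UGCG, GAL3ST1, ST3GAL5, GALC, GLA, B4GALNT1, CERS2, CERS6 and SPHK1. They were chosen by name, with earlier results of the same arrays known, so their differences are descriptions and carry no test. Every probe set whose only gene symbol is one of these names was taken, which gave 18 probe sets for 10 of the 19775 genes named on the array.

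The study sorted Huh7, an established human hepatocellular carcinoma line, by flow cytometry into cells that carry CD133 at the surface (CD133+) and cells that do not (CD133-). CD133 is the membrane protein encoded by PROM1 and in liver cancer serves to enrich cells that start tumours. The labels give no treatment, time or genetic change for either population. Total RNA of each population was taken as measured on 1 array, and the table gives it by the RMA algorithm (log2 values) and by the MAS5 algorithm (linear signal). That both come from 1 array is assumed, since the labels differ only in the algorithm. No array was repeated, so the differences below have no replicate error and no replicate check, and the number of arrays limits the precision. Expression was measured in bulk, so a higher value can come from more cells of a kind or from more RNA per cell, which cannot be told apart.

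Ceramide is the lipid backbone of the sphingolipids. In the endoplasmic reticulum UGT8 adds galactose to it, and GAL3ST1 then sulfates the product to sulfatide, a lipid best known from myelin and kidney. In the Golgi apparatus UGCG adds glucose instead, and galactose follows to give lactosylceramide, from which gangliosides, globosides and lacto-series lipids are built. Lysosomal enzymes such as GALC and GLA take the sugars off again.

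The upstream sequences of 3 genes are shown because they stand for the steps the results turn on. UGT8 differed most between the populations, UGCG competes for the same ceramide and differed by less than 2-fold, and B3GNT5, which opens the lacto-series, was the other glycolipid gene of largest difference. Each sequence is the 250 bases before the farthest upstream start listed by RefSeq in GRCh38.p14, written 5′ to 3′ on the gene's strand. Capitals mark a GC box (GGGCGG) or a CACCC box (CACCC) on either strand.
UGT8: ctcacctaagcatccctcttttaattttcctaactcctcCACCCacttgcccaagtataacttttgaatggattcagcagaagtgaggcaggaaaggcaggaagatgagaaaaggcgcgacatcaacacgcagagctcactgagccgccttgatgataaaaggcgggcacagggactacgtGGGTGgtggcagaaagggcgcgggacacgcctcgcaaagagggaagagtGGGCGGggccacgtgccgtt
UGCG: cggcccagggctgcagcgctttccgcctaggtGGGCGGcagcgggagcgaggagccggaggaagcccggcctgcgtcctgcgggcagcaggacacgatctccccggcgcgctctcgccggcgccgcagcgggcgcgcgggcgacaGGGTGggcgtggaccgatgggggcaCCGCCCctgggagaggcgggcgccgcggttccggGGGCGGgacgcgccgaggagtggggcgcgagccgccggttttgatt
B3GNT5: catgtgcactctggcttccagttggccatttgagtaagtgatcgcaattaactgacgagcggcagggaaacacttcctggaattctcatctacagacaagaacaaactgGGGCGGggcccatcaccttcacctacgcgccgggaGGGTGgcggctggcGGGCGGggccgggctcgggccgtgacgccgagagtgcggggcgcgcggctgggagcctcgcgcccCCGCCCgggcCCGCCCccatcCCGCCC
The UGT8 window lies at chr4:114598152-114598401 (plus strand), the UGCG window at chr9:111896564-111896813 (plus strand) and the B3GNT5 window at chr3:183253003-183253252 (plus strand). The UGT8 window held 1 GC box and 2 CACCC boxes, the UGCG window 3 and 1, and the B3GNT5 window 5 and 1, with no overlap between boxes of the different kinds. A GC box occurred in 42.6% and a CACCC box in 54.7% of all 35116 windows of this length, so both are common. The windows differed in base composition, with 54.8% G and C for UGT8, 78.4% for UGCG and 68.0% for B3GNT5, against a median of 58.0% over all windows. None of the 3 held a TATA box (TATAAA, in 10.7% of windows), a CCAAT box (CCAAT, in 32.0%) or a cAMP response element (TGACGTCA, in 1.65%). RefSeq lists 3 windows for UGT8, and the array does not tell from which start its RNA came. A match of letters is a description and not a binding site.

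Over all probe sets the RMA columns had a Pearson correlation of 0.994 and the log2 MAS5 columns one of 0.923. The arrays matched the labels of the sort. PROM1 had RMA values of 10.49 in CD133+ and 5.33 in CD133- cells. Each gene was read on the probe set with the highest RMA value averaged over both populations. It was counted as above the floor when the brighter of its values exceeded 4.86, the array-wide median of the brighter value, which sets a minimum brightness and does not show that a gene is detected. Of the 12899 genes above it, 213 were at least 2-fold higher in CD133+ cells (1.65%) and 15 at least 2-fold lower (0.116%). By MAS5, 12251 genes lay above a floor of 91.8, the array-wide median of the brighter signal. Of those 12251 genes, 548 were higher and 209 lower. The median RMA difference of the 12899 genes, always CD133+ minus CD133-, was -0.01, and 45.6% were above 0. Probe sets of the same gene gave differences with an SD of 0.17 when both lay above the floor, which leaves out the variation between sorts and arrays.

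**Figure D1:**
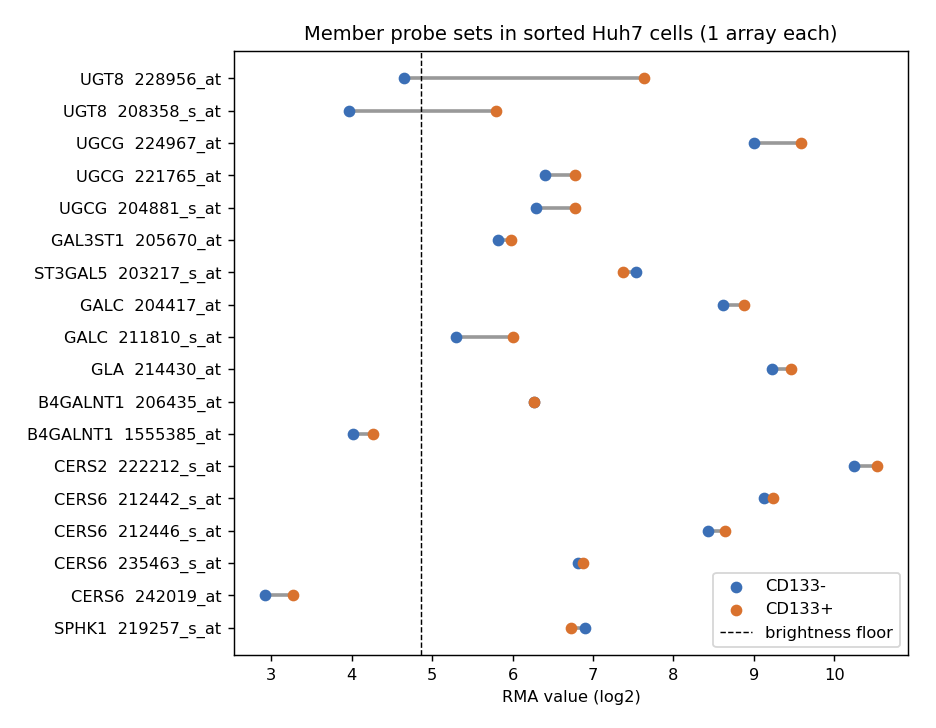
RMA values (log2, horizontal axis) of the 18 member probe sets in CD133- (blue) and CD133+ cells (orange), 1 array each, with a bar joining the values of a probe set and a dashed line at the brightness floor of 4.86. Both UGT8 probe sets cross the floor between the populations, while the other 16 move by at most 0.70. Levels can be compared within a line but not between lines, since probe sets differ in sensitivity.

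Among the 10 members UGT8 alone was at least 2-fold different, and it was higher in CD133+ cells. All 10 members lay above the floor in the brighter population and 9 of them in both. UGT8 was the exception and passed through its CD133+ value. No member was at least 2-fold lower. Of the other 9 members, 6 had a positive difference, B4GALNT1 had none and ST3GAL5 and SPHK1 a negative one, with a range from -0.18 to 0.59. Among all genes above the floor 45.6% had a positive difference. The median of the 10 members was 0.20 by RMA and 0.27 by MAS5 (log2).

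UGT8 was measured by a pair of probe sets. On 228956_at the RMA value was 7.63 in CD133+ and 4.64 in CD133- cells. On the MAS5 scale the same probe set had signals of 987 and 145, a 6.80-fold difference. Because the RMA value of CD133- cells lay below the floor, the RMA fold is given as at least 6.83-fold, and the difference of the values as measured was 2.98 (log2). On 208358_s_at the RMA values were 5.79 and 3.96, a difference of 1.83 or at least 1.91-fold against the floor. The MAS5 signals of that probe set were 242 and 26.2, and since the lower one was under the MAS5 floor of 91.8 the bound is at least 2.63-fold. Both probe sets were thus higher in CD133+ cells by both algorithms, though they differed from each other by 1.15 in the size of the RMA difference. The suffix _s_at marks a probe set that can match several transcripts.

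UGT8 stood in place 13 of the 12899 genes when ordered by the RMA difference of the values as measured. With values below the floor raised to it, an order chosen after seeing the data, UGT8 stood in place 7. The genes just above it in the first order were TFEC (3.16), UCHL1 (3.06) and HEPH (3.02), a transcription factor, a ubiquitin hydrolase and a ferroxidase. Just below it were TMSB4X (2.90), SI (2.78) and DYNLT3 (2.75), which encode an actin-binding peptide, a brush border disaccharidase and a dynein light chain. TFEC, HEPH and DYNLT3 were below the floor in CD133- cells, and against the floor they were at least 2.33-fold, 2.01-fold and 3.40-fold higher. UCHL1, TMSB4X and SI lay above the floor in both populations and stood in places 4, 5 and 6 of the second order. Likeness here is only the closeness of 1 difference between the same arrays. By MAS5 the differences of UCHL1, TMSB4X and SI were 3.28, 3.11 and 2.54, against 2.76 for UGT8. The MAS5 signals of TFEC, HEPH and DYNLT3 in CD133- cells lay under the MAS5 floor of 91.8. Against that floor these genes were at least 4.01-fold, 3.91-fold and 7.04-fold higher.

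GAL3ST1, the sulfotransferase that acts on the lipid made by UGT8, differed little. Its only probe set had RMA values of 5.98 in CD133+ and 5.81 in CD133- cells and MAS5 signals of 171 and 144. The RMA difference of 0.17 was about as large as the spread between probe sets of a gene, and 37.4% of all genes above the floor differed by more. FA2H, which hydroxylates the fatty acid of many galactosylceramides, was below the floor on both of its probe sets.

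The sulfate for this step comes from PAPSS2 and PAPSS1, which make the common sulfate donor. PAPSS2 had RMA values of 10.03 in CD133+ and 8.86 in CD133- cells on its brightest probe set, a 2.24-fold difference. Its other probe sets were higher by 1.03 and 0.61 (log2), and all 3 were higher by MAS5, where the brightest had signals of 3590 and 1258. With the mean over its probe sets the RMA difference of PAPSS2 was 0.94, under 2-fold. PAPSS1 differed by 0.37, with RMA values of 9.45 and 9.08. The donor serves all sulfotransferases and not only GAL3ST1.

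**Figure D2:**
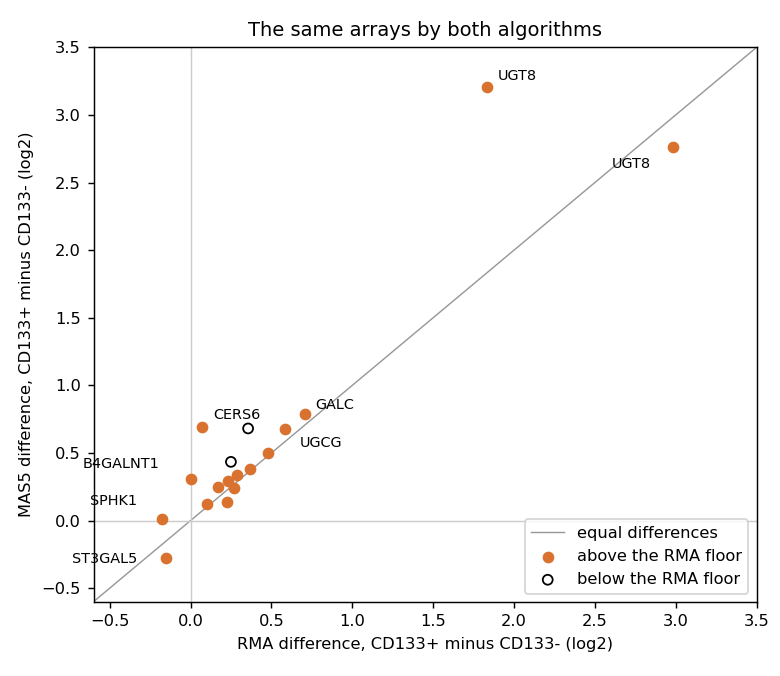
RMA difference (log2, horizontal) against MAS5 difference (log2, vertical), CD133+ minus CD133-, for the 18 member probe sets, open circles being below the RMA floor in both populations, and the line marking equal differences. The UGT8 probe sets lie apart at the upper right, at 2.98 and 1.83 by RMA, and the ST3GAL5 point at the lower left is the only one below 0 by both algorithms.

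UGCG, the glucosylceramide synthase, was the member of next largest difference and was higher on each of its 3 probe sets. On 224967_at the RMA values were 9.59 in CD133+ and 9.003 in CD133- cells, with MAS5 signals of 3673 and 2302. The fold was 1.501 by RMA and 1.60 by MAS5. The other probe sets gave RMA differences of 0.37 and 0.48, so the 3 lay within 0.22 of each other. Each of these exceeded the spread between probe sets of a gene, and 4.65% of all genes above the floor differed by more than 224967_at. On the brightest probe set of each gene by RMA, the difference of UGT8 was larger than that of UGCG by at least 2.19 (log2). This takes the CD133- value of UGT8 as raised to the floor, on 1 array per population. The size of the gap depends on the reading. By MAS5 the differences of UGT8 and UGCG were 2.76 and 0.67, and with the mean of probe sets 2.41 and 0.48. The dimmer UGT8 probe set was at least 1.91-fold higher against the floor.

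The next step of this branch, galactose onto glucosylceramide, is shared by B4GALT5 and B4GALT6. B4GALT5 had RMA values of 8.75 and 8.72 on its brighter probe set and differed by 0.03. B4GALT6 had RMA values of 6.33 in CD133+ and 5.10 in CD133- cells and MAS5 signals of 409 and 137, a 2.35-fold difference by RMA. Its other 3 probe sets gave RMA differences of 1.05, -0.05 and -0.14, the first 2 from values below the floor. The third, above the floor by RMA, had MAS5 signals of 60.1 and 7.27, both under the MAS5 floor. The 2-fold call of B4GALT6 thus rests on 1 probe set above the floor.

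B3GNT5, which adds N-acetylglucosamine to lactosylceramide and starts the lacto-series, was 2.66-fold higher. Its RMA values were 7.74 in CD133+ and 6.33 in CD133- cells, and the MAS5 signals were 1144 and 328. On its dimmer probe sets the RMA differences were 0.72 and 0.62, the latter from values below the floor in both populations. The former had a CD133- value of 4.36, also below the floor, and was at least 1.17-fold higher against it. The 2-fold call of B3GNT5 thus rests on 1 probe set. B3GNT5 stood in place 110 and B4GALT6 in place 145 of the order by difference. A4GALT and B3GALNT1, which build globosides, differed by 0.17 and 0.12 by RMA on the brightest probe set of each. Both MAS5 signals of A4GALT lay under the MAS5 floor of 91.8, so no MAS5 difference is given for it. By MAS5 the brightest B3GALNT1 probe set differed by -0.14. The next B3GALNT1 probe set, also above the floor, differed by 0.19 by RMA and 0.72 by MAS5. The dimmest, below the RMA floor, gave -0.06 and -0.13. The sign of B3GALNT1 thus depended on the probe set and the algorithm.

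**Figure D3:**
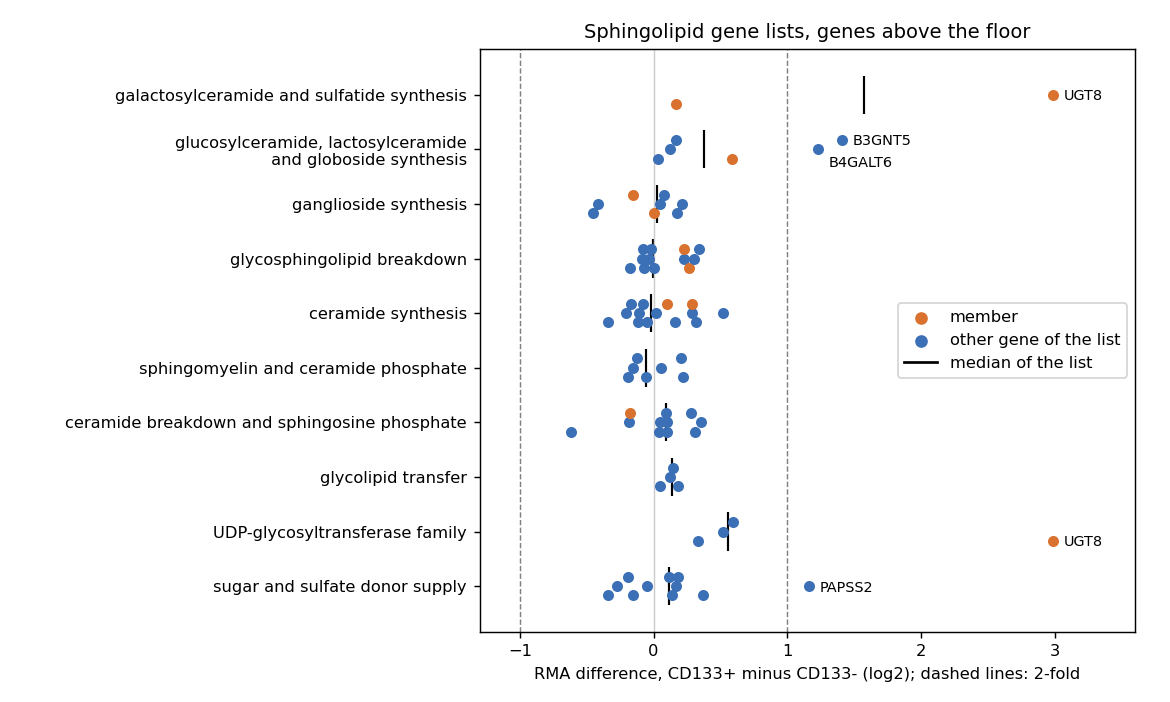
RMA difference (log2, horizontal), CD133+ minus CD133-, of the genes above the floor in 10 lists of sphingolipid and supply genes, members in orange, other genes in blue, a black bar at each list's median and dashed lines at 2-fold. UGT8 (2.98, shown in both lists that hold it), B3GNT5 (1.41), B4GALT6 (1.23) and PAPSS2 (1.16) are the points beyond the upper dashed line, and no point lies beyond the lower one.

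The ganglioside members did not differ much. ST3GAL5, the sialyltransferase that turns lactosylceramide into the simplest ganglioside, had RMA values of 7.38 in CD133+ and 7.53 in CD133- cells. Its MAS5 signals were 605 and 732, and its difference was -0.15 by RMA and -0.27 by MAS5, lower in CD133+ cells by both. B4GALNT1, which extends that ganglioside, had an RMA value of 6.27 on both arrays, while the MAS5 signals were 273 and 221. Its other probe set lay below the floor. Of the 8 ganglioside synthesis genes above the floor 4 had a positive and 3 a negative difference, none of 2-fold, with a median of 0.03. ST3GAL2 was highest with 0.21. ST3GAL1, a sialyltransferase that also acts on glycoproteins, was lowest with -0.45, and its other probe sets gave -0.71 and -0.51 by RMA, although the last was 0.05 by MAS5.

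The lysosomal members were slightly higher in CD133+ cells. GALC, which removes the galactose that UGT8 adds, had RMA values of 8.88 and 8.62 on its brighter probe set and 6.005 and 5.30 on the other, in CD133+ and CD133- cells. The differences were 0.27 and 0.70, and the MAS5 signals of the brighter probe set were 2493 and 2114. GLA, the alpha-galactosidase deficient in Fabry disease, had RMA values of 9.46 and 9.23 and MAS5 signals of 3654 and 2988, a difference of 0.23 by RMA and 0.29 by MAS5. Among all genes above the floor, 19.7% differed by more than GALC and 24.8% by more than GLA. In the wider breakdown list 6 of the 12 genes above the floor were positive and 6 negative, none of 2-fold and a median of -0.0048. HEXA, a subunit of the hexosaminidases, was highest with 0.34 and the sialidase NEU3 lowest with -0.17.

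The ceramide synthases differed by small amounts. CERS2, which prefers very long acyl chains, had RMA values of 10.53 in CD133+ and 10.25 in CD133- cells and MAS5 signals of 7179 and 5674, a difference of 0.29 by RMA and 0.34 by MAS5. CERS6, which makes ceramides with shorter acyl chains, had 9.23 and 9.13 on its brightest probe set, a difference of 0.10. Its other 3 probe sets gave 0.22, 0.07 and 0.36, the last from values below the floor. Of the 14 ceramide synthesis genes above the floor 7 were positive and 7 negative, none of 2-fold, with a median of -0.02. SPTSSA, a small subunit of serine palmitoyltransferase, was highest with 0.52, and its other probe set gave 0.50. ORMDL3, which restrains that enzyme, was lowest with -0.34, while its dimmer probe set gave 0.05.

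SPHK1, which phosphorylates sphingosine to a signalling lipid, changed sign with the algorithm. The RMA values were 6.73 in CD133+ and 6.90 in CD133- cells, a difference of -0.18, while the MAS5 signals of 588 and 583 gave 0.01. Of 11 genes of ceramide breakdown and sphingosine phosphate above the floor, 8 were positive and 3 negative, none of 2-fold, with a median of 0.10. The acid ceramidase gene ASAH1 was highest with 0.35, and all 5 of its probe sets were positive, from 0.21 to 0.72. The receptor gene S1PR3 was lowest with -0.62, from RMA values of 5.21 and 5.83.

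Over the 8 sphingolipid lists together, 75 of 86 genes had a probe set naming them alone, and 64 lay above the floor. UGT8, B3GNT5 and B4GALT6 were at least 2-fold higher and none was 2-fold lower, against 1.65% and 0.116% of all genes. With the mean over a gene's probe sets UGT8 alone of these remained 2-fold higher, B3GNT5 differing by 0.92 and B4GALT6 lying below the floor. Of the 64, 40 were positive and 23 negative, with a median of 0.07 by RMA and 0.14 by MAS5 against -0.01 and 0.0027 for all genes. The 7 sphingomyelin and ceramide phosphate genes had a median of -0.06, from -0.19 for the sphingomyelinase SMPD3 to 0.22 for the ceramide kinase CERK. SMPD3 passed the floor only through its CD133- value of 4.99, and against the floor it was at least 1.09-fold lower. Both of its MAS5 signals, 34.9 and 50.5, were under the MAS5 floor. The 4 glycolipid transfer genes were all positive, from 0.05 for GLTPD2 to 0.18 for CPTP.

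UGT8 belongs to the UDP-glycosyltransferases, most of which conjugate bile acids, steroids and drugs in liver. Of the 15 family genes listed, 9 had a probe set naming them alone, and the rest were not read. Besides UGT8, those above the floor were UGT3A1 with a difference of 0.60, UGT2B4 with 0.52 and UGT2B28 with 0.33, none of 2-fold. By MAS5 UGT3A1 differed by 0.09, with signals of 109 and 103. The UGT2B28 probe set can take up related transcripts. Among the 11 genes of sugar and sulfate donor supply above the floor, PAPSS2 was the only one of 2-fold, and SLC35A1, the Golgi transporter of activated sialic acid, was lowest with -0.34.

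**Figure D4:**
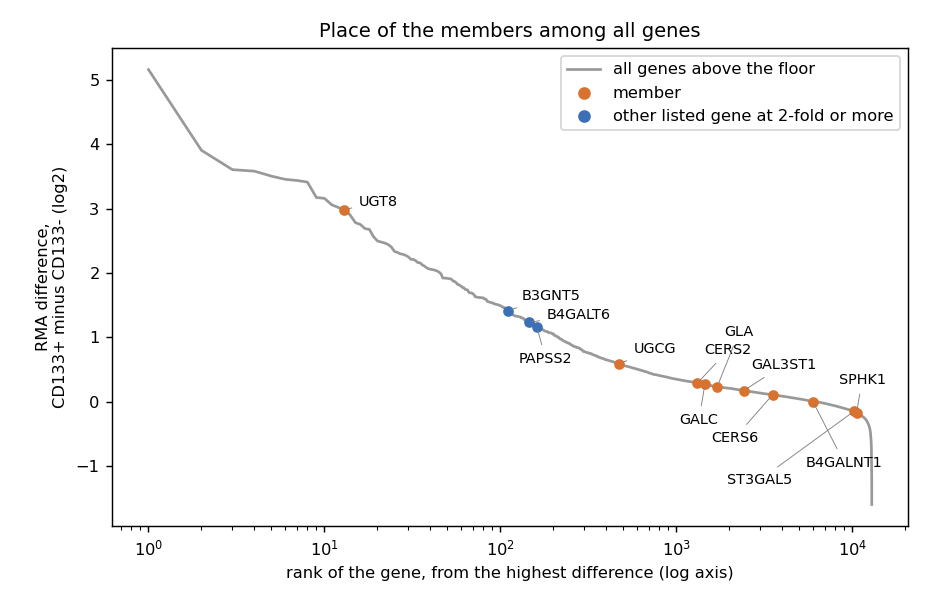
RMA difference (log2, vertical), CD133+ minus CD133-, of the 12899 genes above the floor in order from the highest (rank on a log axis), with the 10 members in orange and B3GNT5, B4GALT6 and PAPSS2 in blue. By the values as measured UGT8 sits at rank 13 and UGCG at rank 473, and the other 8 members lie between ranks 1317 and 10576, on the flat part of the curve.

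Markers of other cells were read on the same arrays. All 11 hepatocyte lineage genes with a probe set were above the floor, from -0.25 for APOB to 0.55 for TTR, with summed MAS5 signals of 426664 in CD133+ and 414516 in CD133- cells. Of 6 oligodendrocyte and Schwann cell markers, the cells in which UGT8 is best known, MBP, CNP and SOX10 were above the floor and MOG, MAG and MOBP below it. By RMA none of these was 2-fold different, with SOX10 highest at 0.41, and the summed MAS5 signals were 2017 and 1708. By MAS5 SOX10 had signals of 90.2 in CD133+ and 16.4 in CD133- cells and MOG 68.4 and 8.45, all under the MAS5 floor, so that no fold is given. Their part in the UGT8 difference was not tested. Of 6 blood cell markers 4 were above the floor, none 2-fold different, with summed signals of 13200 and 13971, mostly from LYZ, and PTPRC was below the floor. Of 9 endothelial and stromal markers 5 were above the floor, with summed signals of 3046 and 1640. LUM was at least 2.33-fold higher, with a CD133- value below the floor, and COL1A2 was higher by 1.33 (log2), while DCN, COL3A1, ACTA2 and CDH5 were below the floor. The other markers of this list above the floor differed little, PECAM1 by 0.23, COL1A1 by 0.04 and VWF by 0.02. Only LUM and COL1A2 of this list were 2-fold higher, and their part in the UGT8 difference was not tested.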

How the data were processed

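The deposited table holds 54675 probe sets and 4 columns, 1 array per population by each algorithm. The authors' MAS5 columns are signal intensity on a linear scale, per the labels. Both had a mean of 500.1 after trimming 2% from each end. The authors' RMA columns are log2 values, per the labels. The submitters' processing notes name MAS5, GCOS and RMA but no version. Which arrays were normalized together is not given in the sources used here. A quantile step, which is part of RMA, would hide a global shift between the populations.

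The platform annotation gave 41097 probe sets exactly 1 symbol, and 41043 were matched to GRCh38.p14 by Entrez number. Probe sets with several symbols or none (1801 and 11777) named no gene. Differences, folds and floors were computed with Python 3.11.15, pandas 2.3.3 and numpy 2.4.6, and the counting was tested on simulated data. The MAS5 and RMA columns of a population were taken as the same array, an assumption based on labels that name only another algorithm, and never as replicates. With 1 array per population no test was run.

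The members and lists were chosen with earlier results of these data known. The text names all members, list genes of at least 2-fold or a list's extremes, and the 3 genes on each side of UGT8. Other list genes, and further probe sets, were named for their role after their values were seen. A planned choice of UDP-glycosyltransferases by protein likeness was not made, since protein sequences were not used here. RefSeq promoter windows matched 8 of the 10 members.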

Additional observations from a re-analysis of the deposited data

How the results depend on the processing

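UGT8 was the only member at least 2-fold higher, and no member was 2-fold lower, under MAS5, without a floor, with the floor at the upper quartile of brightness (6.79), with the mean of probe sets, with the probe set of largest difference, without shared probe sets, after centring and, added after seeing the data, with values below the floor raised to it. The higher floor left 8 members and the exclusion of shared probe sets left 6 above the floor. At a 1.5-fold threshold 2 members were higher, UGCG being added. The UGT8 difference was 2.76 by MAS5, 2.41 with the mean of its probe sets and 2.77 with its CD133- value raised to the floor. For the other members 46 of 51 recomputed differences moved by less than the SD between probe sets of a gene, 5 moved by more and none reached 2-fold. The sign of SPHK1 turned under MAS5. Of the sphingolipid genes 1 instead of 3 was 2-fold higher with the mean of probe sets, and at 1.5-fold 4 were higher and 1 was lower. Over all genes, the counts higher and lower were 548 and 209 of 12251 by MAS5, and 474 and 130 of 12899 at 1.5-fold. With the higher floor 117 of the 7999 genes left were higher. With 1 array per population no library could be left out and no paired analysis was possible. Brightness limits the CD133- values of UGT8, which lay below the RMA floor on both probe sets.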

Other observations

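The algorithms gave different sizes for some member probe sets, and both are assumed to come from the same arrays. On UGT8 probe set 208358_s_at the difference of the values as measured was 1.83 by RMA and 3.21 by MAS5, and both rest on CD133- values below the floors, so neither size is fixed. Among the other members the largest gap was on CERS6 probe set 235463_s_at, with 0.07 by RMA and 0.69 by MAS5, from MAS5 signals of 653 and 403. B4GALNT1 probe set 206435_at was identical on both arrays by RMA and differed by 0.31 by MAS5. Over all 18 member probe sets, 15 were positive, 2 negative and 1 at 0 by RMA, and 17 were positive and 1 negative by MAS5. By RMA 45.6% of all genes above the floor were positive, and the share by MAS5 was not computed. The 18 probe sets read only 10 genes, on 1 array per population, so they are not separate observations.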
